A study of Homo sapiens with 2 samples.

Results

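The cells described are the RWPE1 cells with the highest KRT13 level, a group proposed as hillock-like. They were chosen by their KRT13 reading, taken as KRT13 unique molecular identifiers (UMIs) per 10000 UMIs of the cell. A cell was KRT13-high if its reading was at or above the 95th percentile of all kept RWPE1 cells, 10.03, and rested on at least 3 KRT13 UMIs. This gave 499 KRT13-high cells of 9967 kept RWPE1 cells and of 24107 kept cells in the whole series. They were set against the 4942 RWPE1 cells without a KRT13 UMI, called KRT13-negative here, and 4526 cells with a KRT13 UMI lay below the limit.

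The study profiled RWPE-ERG-mAKT and RWPE1 cells by droplet single-cell RNA sequencing, with 1 library for each. RWPE1 is an immortalised line of human prostate epithelium, grown in keratinocyte serum-free medium. RWPE-ERG-mAKT cells carry exogenous ERG, an ETS transcription factor driven by the HNRNPA2B1 promoter from a retroviral vector, together with myristoylated, constitutively active AKT1, and the RWPE1 sample is labelled as its vector only control. The methods describe hygromycin and puromycin selection after infection, and nothing in the labels says that either line is 1 clone. Since each line is 1 library and cells of a library are not replicates, no test between groups was possible. Intervals below are exact 95% intervals that cover counting error only.

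Hillock cells are stratified epithelial cells, first described in the mouse trachea and then in the prostate, that express KRT13 and KRT4, the keratin pair of non-keratinising squamous epithelium. In the prostate they have been placed near the urethra and beside club cells, which secrete defence proteins. KRT13 is a type I keratin that pairs with KRT4, a type II keratin, in the suprabasal layers of such epithelia, whereas KRT5 and KRT14 form the filaments of basal cells.

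The data fitted the name only in part. Of the 499 KRT13-high cells, 37 (7.41%, 5.27 to 10.1%) lay in a small cluster of 110 cells led by S100A8, S100A9, LCN2, SPRR1B and other squamous and defence genes. The other 462 were spread over the remaining clusters and had more KRT4 than KRT13-negative cells, but not more S100A8, S100A9 or SPRR3. They are therefore called KRT13-high below, without a cell type name. Many results, though not all, are given with and without the small cluster. The comparison without it was chosen after seeing the data.

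RWPE1 gave 12504 barcodes, of which 9967 had over 2500 detected genes and under 7.5% mitochondrial UMIs, with 5104 to 94518 UMIs per cell. RWPE-ERG-mAKT gave 17355 barcodes and 14140 such cells, with 4446 to 68396 UMIs per cell. The study's methods state a window of 200 to 2500 genes, which with under 7.5% mitochondrial UMIs would leave 2775 RWPE-ERG-mAKT and 362 RWPE1 barcodes, so the cells described here lie outside that window. The methods word the mitochondrial filter as removing cells below the limit, which was read here as keeping them. The 2 libraries shared 55 barcode sequences, and 1 KRT13-high cell had a barcode also present in RWPE-ERG-mAKT. KRT13-high cells had a median of 17282 UMIs and 5.46% mitochondrial UMIs, and KRT13-negative cells 15281.5 UMIs and 5.50%.

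The promoters of 4 genes that were higher in KRT13-high cells are shown first, because these genes separate into the 2 patterns described below. KRT4 was higher with and without the small cluster, whereas the levels of SPRR1B, S100A9 and LCN2 in KRT13-high cells lay almost wholly within it. The sequences run from 250 bases before to 50 bases after the annotated start in RefSeq (GRCh38.p14). Capitals mark AP-1 matches (TGANTCA) in SPRR1B and LCN2 and the TATA box (TATAAA) in S100A9. The KRT4 window, chr12:52814067-52814366 on the minus strand, held neither motif, and the others lie on the plus strand at chr1:153030953-153031252 (SPRR1B), chr1:153357604-153357903 (S100A9) and chr9:128149203-128149502 (LCN2).
KRT4: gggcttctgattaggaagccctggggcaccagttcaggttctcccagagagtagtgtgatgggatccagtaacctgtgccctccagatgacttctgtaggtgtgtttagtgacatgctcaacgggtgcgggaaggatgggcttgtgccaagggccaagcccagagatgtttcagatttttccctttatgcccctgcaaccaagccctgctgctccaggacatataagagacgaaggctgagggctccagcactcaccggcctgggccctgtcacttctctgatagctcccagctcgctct
SPRR1B: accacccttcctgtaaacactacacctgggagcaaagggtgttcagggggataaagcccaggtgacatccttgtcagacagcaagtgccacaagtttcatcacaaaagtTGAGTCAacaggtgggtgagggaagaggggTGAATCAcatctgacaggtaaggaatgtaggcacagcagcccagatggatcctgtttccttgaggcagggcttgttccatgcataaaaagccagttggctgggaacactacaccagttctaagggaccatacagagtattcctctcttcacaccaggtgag
S100A9: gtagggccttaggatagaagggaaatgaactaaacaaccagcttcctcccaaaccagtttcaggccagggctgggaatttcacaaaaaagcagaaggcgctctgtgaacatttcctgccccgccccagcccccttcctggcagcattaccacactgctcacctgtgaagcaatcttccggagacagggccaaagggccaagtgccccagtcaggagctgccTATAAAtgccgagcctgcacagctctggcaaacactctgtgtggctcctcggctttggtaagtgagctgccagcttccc
LCN2: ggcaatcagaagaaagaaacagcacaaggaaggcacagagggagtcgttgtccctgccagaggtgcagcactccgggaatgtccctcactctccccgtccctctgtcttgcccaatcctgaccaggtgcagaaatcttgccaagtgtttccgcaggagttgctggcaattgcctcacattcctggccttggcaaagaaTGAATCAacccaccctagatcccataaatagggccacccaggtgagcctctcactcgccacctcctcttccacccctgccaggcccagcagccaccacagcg

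Both strands were searched. Of the 15 genes with the highest ratio, 11 had a promoter in the table, and AP-1 was matched in 2 of these (LCN2 and SPRR1B), the TATA box in 3, AACCNGTT, a grainyhead-like motif, in 3, and CACACCC, a KLF motif, in 2. Of the 15 genes with the lowest ratio, 11 had a promoter, with no match to AP-1, the TATA box or AACCNGTT and 2 to CACACCC. Over all 35116 promoters the shares were 7.71% for AP-1, 11.5% for the TATA box, 1.73% for AACCNGTT and 7.56% for CACACCC. A match describes the letters only.

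KRT13 levels are given as a description, since they chose the cells. KRT13 (ENSG00000171401, hg38, chr17:41500981-41505705, minus strand) had 9 to 185 UMIs per KRT13-high cell, with a median of 27, and the readings ran from 10.03 to 152.6 with a median of 14.6. The KRT13-high cells held 41.0% of all KRT13 UMIs of kept RWPE1 cells. KRT13 formed a continuous range: 72 cells lay within 10% above the limit and 78 within 10% below it. The readings nearest to the limit were 10.0308, 10.0536 and 10.0686 inside and 10.0272, 10.0192 and 10.0056 outside. The class is thus a range cut at a percentile and not a separate population by KRT13 alone.

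**Figure D1:**
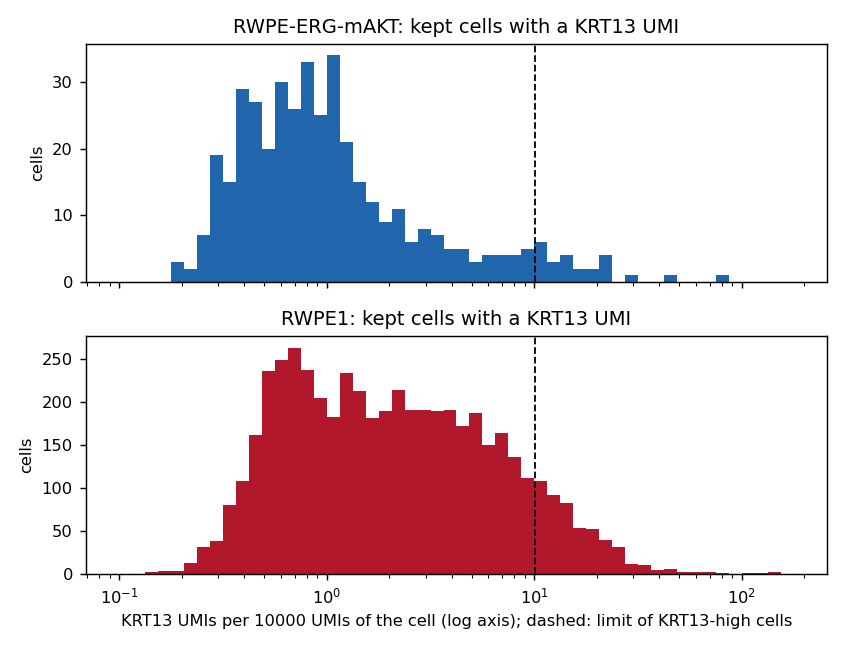
Histograms of KRT13 UMIs per 10000 UMIs (log axis) in kept cells with at least 1 KRT13 UMI, for RWPE-ERG-mAKT above and RWPE1 below, with the number of cells on the vertical axes and the limit of 10.03 as a dashed line. No gap in the RWPE1 distribution stands at the limit, and 24 RWPE-ERG-mAKT cells against 499 RWPE1 cells lie at or above it.

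Free RNA was gauged in barcodes with markers of foreign cells, from which kept cells were not left out. In 53 RWPE1 barcodes marked by TYROBP and AIF1 or by TTR, ENPP2, OTX2 and SOSTDC1, genes of cells foreign to a prostate epithelial line, the median was 617 UMIs. Thinned to 500 UMIs, 301 of 499 KRT13-high cells (60.3%, 55.9 to 64.6%) had a KRT13 UMI, against 5 of these 53 barcodes (9.43%, 3.13 to 20.7%) and 7.90% of all kept RWPE1 cells. The share of KRT13-high cells follows from how they were chosen and is a description. The share over all kept cells was no higher than that of the 53 barcodes, and 1308 kept cells had 1 KRT13 UMI and 679 had 2. Of the 53 barcodes 5 were themselves kept RWPE1 cells, and 1 was KRT13-high. Their share of 9.43% may thus include RNA of epithelial cells, and it cannot tell free RNA from KRT13 of the cells.

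Where KRT13-high cells sat was read from clusters built without KRT13. Of 13 clusters, the cluster led by S100A8 had the highest share of KRT13-high cells, 37 of 110 (33.6%, 24.9 to 43.3%), and 27 of its cells had no KRT13 UMI. The next highest share was 9.36% (28 of 299), in a cluster led by UBE2C and UBE2S. That cluster had the highest median UMIs of all clusters, 27531. Among the larger clusters the share was 8.23% in the cluster led by CLIC3 and KRT19 (86 of 1045) and 7.85% in a cluster led by histone genes (95 of 1210). It was 5.90% in the largest (129 of 2185) and 4.05% in one led by UBE2C and KIF14 (51 of 1258). The S100A8-led cluster held 37 KRT13-high cells under every clustering setting tried.

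KRT13-high cells were nearly missing from 4 clusters. Clusters led by CUX2 and FN1 and by SHISA9 and TNC had 5 of 1166 (0.429%) and 2 of 287 (0.697%), and had high VIM, the mesenchymal intermediate filament, at 1240 and 2034 CPM (counts of UMIs scaled to a common total per group). Clusters led by CXCL14 and KLK5 and by KLK10 and KLK5 had 1 of 737 (0.136%) and 2 of 413 (0.484%), with the basal keratin KRT14 at 5962 and 5500 CPM. These clusters make up much of the KRT13-negative group: the VIM-high pair held 1.40% of KRT13-high cells and 24.3% of KRT13-negative cells. A difference between the groups can therefore be one of cluster, so KRT13-negative levels were also weighted to the clusters of the KRT13-high cells.

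**Figure D2:**
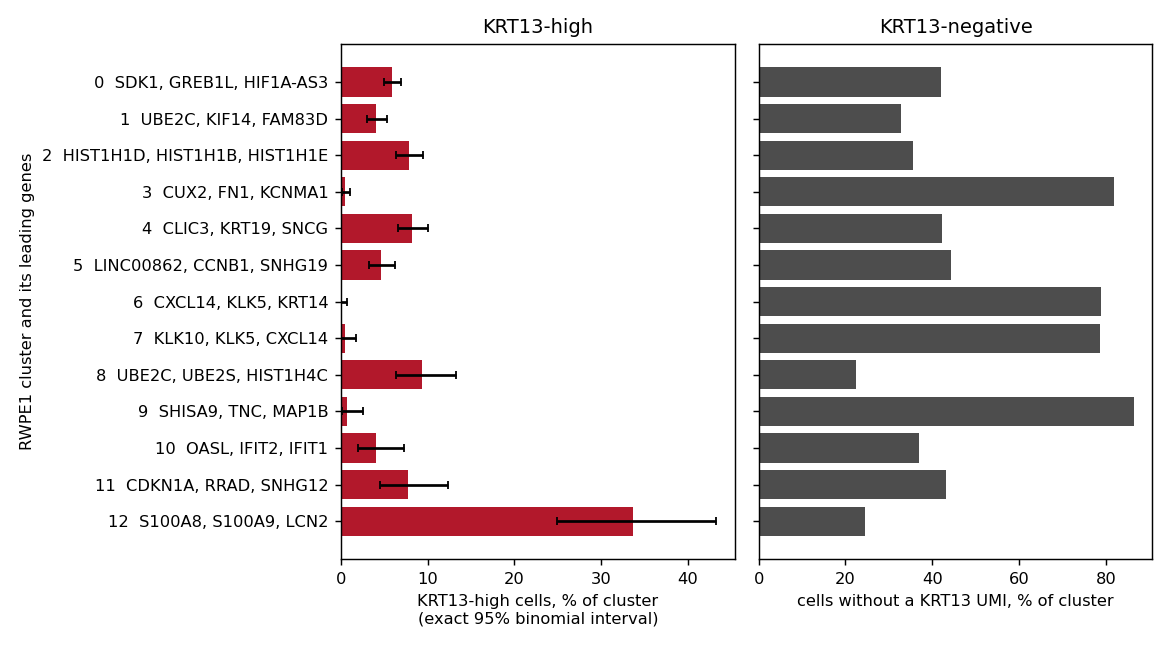
Share of KRT13-high cells (left, with exact 95% binomial intervals) and of KRT13-negative cells (right) in each RWPE1 cluster, named by its leading genes, in percent of the cluster. The S100A8-led cluster stands at 33.6% KRT13-high, and the clusters led by CUX2, CXCL14, KLK10 and SHISA9 are below 1%.

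Over all genes with at least 20 CPM in either group, 45 of 7050 were over 2-fold higher in KRT13-high cells (0.638%) and 45 were over 2-fold lower (0.638%), KRT13 left out. Without the S100A8-led cluster 22 of 7022 were higher (0.313%) and 51 lower (0.726%), and 20 of the 22 were among the 45. With KRT13-negative cells weighted to clusters as well, 10 of 6870 were higher (0.146%) and 2 lower (0.0291%). These are counts of levels past a fold in 1 library, with no test.

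KRT4, the partner of KRT13, had the highest ratio of the hillock genes. It had 1106 UMIs in KRT13-high cells, or 112 CPM, against 4.05 CPM (3.63 to 4.51) in KRT13-negative cells, a log2 ratio of 4.79 (4.62 to 4.97). Without the S100A8-led cluster KRT4 was 43.4 CPM in KRT13-high cells and 3.42 CPM in KRT13-negative cells, a log2 ratio of 3.67 (3.44 to 3.89), and 3.57 with the weighting. KRT4 was still not general. Without thinning, 139 of 462 KRT13-high cells outside that cluster (30.1%) had a KRT4 UMI, against 179 of 4915 KRT13-negative cells (3.64%). The 462 cells held between 0 and 46 KRT4 UMIs with a median of 0, and the 4915 cells between 0 and 48 with a median of 0, so the ranges overlapped fully. Thinned to 5000 UMIs, 14.6% of KRT13-high cells (11.6 to 18.0%) and 1.40% of KRT13-negative cells (1.09 to 1.76%) had one. Of the 462 KRT13-high cells outside the cluster, 57 (12.3%, 9.48 to 15.7%) had one at that depth.

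The other hillock genes were mixed. Of the 20 genes of the list, KRT13 not among them, 19 reached 10 UMIs, 10 were over 2-fold higher with 1 CPM added and none lower. The same call took 0.839% of all 20628 genes upward and 1.09% downward, and the median log2 ratio was 1.01 for the list and -0.04 for all genes. Without the S100A8-led cluster 2 of 18 were higher and 2 lower, with a median of 0.12, where 0.346% of all genes were higher and 1.31% lower. With the weighting as well, 1 of 18 was higher and none lower (median 0.29), where 0.19% of all genes were higher and 0.0828% lower. CLDN4, a tight junction claudin, was 20.5 CPM in KRT13-high cells and 8.52 CPM in KRT13-negative cells without the cluster (log2 ratio 1.26). With the weighting as well its ratio was 0.90, under 2-fold. KRT19, a simple-epithelial keratin, was 1321 and 672 CPM without the cluster (0.98, 0.95 to 1.00), and its ratio was 0.48 with the weighting as well. Genes that hardly differed were ANXA1 and CSTB, with log2 ratios of 0.10 and 0.09 without the cluster, and CNFN (-0.35). TMEM45A was 0.22 and 2.36 CPM without the cluster (-3.45, weighted -2.03), at very low levels. ECM1, an extracellular matrix protein, turned round, with a log2 ratio of 1.97 with the cluster and -1.72 (-2.51 to -1.02) without it, but -0.20 with the weighting as well.

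S100A9, S100A8, SPRR1B and LCN2 had over 95% of their KRT13-high UMIs in the S100A8-led cluster. S100A9 and S100A8, the calprotectin subunits, had 523 and 208 CPM in KRT13-high cells against 37.9 and 14.6 CPM in KRT13-negative cells, but 98.4% and 99.3% of those KRT13-high UMIs came from 37 cells. Without that cluster S100A9 was 8.77 CPM in KRT13-high cells and 15.4 CPM in KRT13-negative cells (log2 ratio -0.81, -1.16 to -0.49). The cornified-envelope gene SPRR1B was 74.2 against 9.01 CPM with the cluster, and 3.25 against 3.93 CPM without it (log2 ratio -0.28, -0.87 to 0.27). With the weighting as well the SPRR1B ratio turned to 0.99. LCN2, an iron-sequestering defence protein, was 116 against 4.69 CPM with the cluster and 3.68 against 2.31 CPM without it. Of the squamous differentiation list 16 of 28 were over 2-fold higher with the cluster (median 1.55), where 0.839% of all genes were, and 1 of 22 without it (median -0.02), where 0.346% were. Of the innate defence list 9 of 20 were higher with the cluster and 2 of 19 without it.

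Single cells carried some of these values. S100A7, a psoriasin, had the highest log2 ratio of the genes named by rule, 7.80, and 1008 of its 1029 UMIs in KRT13-high cells came from 1 cell. Without that cell it stood at 2.14 CPM, a log2 ratio of 2.19. SPINK5, a protease inhibitor of the skin, had 401 of 677 UMIs in 1 cell, and its log2 ratio was 5.11 with that cell and 3.82 without it. S100A8 had 873 of 2048 UMIs in 1 cell and S100A9 1256 of 5150. Without the top cell of each gene their log2 ratios were 3.04 and 3.39. SPRR1B had 241 of 730 UMIs in 1 cell and PI3 659 of 2169, with log2 ratios of 2.47 and 2.72 without it.

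Within the S100A8-led cluster KRT13-high and KRT13-negative cells both had high S100A9 and SPRR1B. S100A9 was 8458 CPM in its 37 KRT13-high cells and 4601 CPM in its 27 KRT13-negative cells, and SPRR1B 1168 and 1040 CPM. KRT4 differed more, at 1176 and 133 CPM. These 64 cells are few, and single cells hold up to 1256 S100A9 UMIs.

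A second set of genes stayed higher in KRT13-high cells without the S100A8-led cluster and with the weighting. PI3 (elafin) and SLPI, both protease inhibitors of mucosal surfaces, were 71.9 and 93.4 CPM in KRT13-high cells and 14.5 and 27.9 CPM in KRT13-negative cells without the cluster. Their log2 ratios were 2.31 (2.17 to 2.45) and 1.74 (1.63 to 1.86), and 1.76 and 1.43 with the weighting. CLIC3, an intracellular chloride channel protein, was 190 and 50.8 CPM (1.90, weighted 1.32), and H19, an imprinted long non-coding RNA, was 77.8 and 19.2 CPM (2.02, weighted 1.53). UPK3BL1, a uroplakin-like gene, was 85.7 and 41.2 CPM (1.06, weighted 1.02). H19 owed little to the cluster, which held 1.78% of its KRT13-high UMIs, and neither did CLIC3 (14.6%). Outside the cluster H19 was found in 51.7% of KRT13-high cells and 18.2% of KRT13-negative cells, and CLIC3 was detected in 77.5% of KRT13-high cells and 34.5% of KRT13-negative cells, without thinning.

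Other named genes at the cell surface were MUC1, PSCA and LY6D. MUC1, a membrane mucin, was 18.8 CPM in KRT13-high cells and 4.72 CPM in KRT13-negative cells without the cluster (log2 ratio 2.0, 1.73 to 2.26). PSCA, a prostate stem cell antigen that is also a club cell marker, was 12.3 and 2.68 CPM (2.20, 1.86 to 2.53). LY6D was 38.9 and 14.7 CPM (1.41, 1.23 to 1.58). MUC16, which was picked after its values were seen, was 3.14 and 0.27 CPM (3.56, 2.71 to 4.43). MUC20, picked likewise, had 4 of its 80 KRT13-high UMIs outside the cluster, with a log2 ratio of 3.62 with it, 0.35 without it and -0.46 with the weighting as well. Of 4 mucins measured without the cluster 2 were over 2-fold higher, where 0.346% of all genes were.

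**Figure D3:**
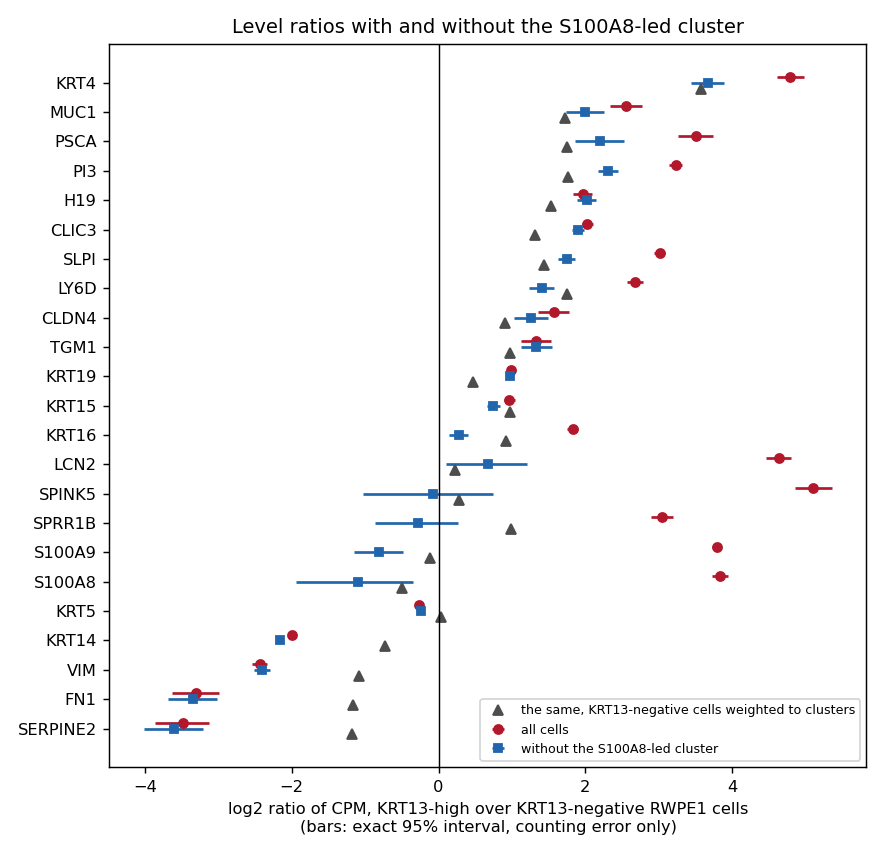
Log2 ratio of CPM, KRT13-high over KRT13-negative RWPE1 cells, for 23 genes in all cells (circles), without the S100A8-led cluster (squares) and with KRT13-negative cells also weighted to clusters (triangles); bars on circles and squares are exact 95% intervals. KRT4, PI3, H19 and SLPI stay to the right of 0 in all 3, while S100A9 and S100A8 cross to the left without the cluster.

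Regulators of differentiation and the Notch pathway were read next. ELF3, an epithelial ETS factor, was 25.8 CPM in KRT13-high cells and 11.1 CPM in KRT13-negative cells without the cluster (log2 ratio 1.22, weighted 0.62). GRHL2, a regulator of epithelial differentiation, stood at 0.19. Of 27 differentiation factors 4 were over 2-fold higher with the cluster, and 2 higher and 1 lower without it. The same calls took 0.839% of all genes higher with the cluster, and 0.346% higher and 1.31% lower without it. The Notch targets HES4 and NRARP were 94.2 and 26.0 CPM in KRT13-high cells and 47.1 and 13.6 CPM in KRT13-negative cells without the cluster. Of 15 Notch genes 1 was over 2-fold higher and 1 lower there, with a median of 0.26, against the same 0.346% and 1.31% of all genes.

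CRABP2, which carries retinoic acid to its receptors, was 22.8 CPM in KRT13-high cells and 9.48 CPM in KRT13-negative cells without the cluster (log2 ratio 1.27, weighted 1.81). ALDH1A3, which makes retinoic acid, was 145 and 97.9 CPM (0.57), and the receptors RARG and RXRA stood at 0.26 and 0.18. TGM1, a transglutaminase of the cornified envelope, had a log2 ratio of 1.33 with and without the cluster. SERPINB3, a squamous serpin, was 17.1 and 6.76 CPM without the cluster (1.34). KLK5 and KLK8, kallikrein proteases of the epidermis, had 88.8% and 70.2% of their KRT13-high UMIs in the cluster, and without it KLK5 was 3.68 and 14.8 CPM (-2.01, weighted -0.11) and KLK8 14.2 and 13.6 CPM (0.06, weighted 0.74).

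Of 17 keratins 4 were over 2-fold higher and 1 lower, where 0.839% of all genes were higher and 1.09% lower. Without the S100A8-led cluster 2 were higher and 2 lower, where 0.346% and 1.31% of all genes were. With the weighting as well 1 was higher and 0 lower, where 0.19% and 0.0828% of all genes were. KRT14 was 594 CPM in KRT13-high cells and 2376 CPM in KRT13-negative cells (log2 ratio -2.0, -2.04 to -1.96), and KRT5, its partner, 1872 and 2241 CPM (-0.26). The weighting brought the KRT14 ratio without the S100A8-led cluster to -0.73 and that of KRT5 to 0.03. KRT8 and KRT18, the luminal pair, were 704 and 1620 CPM in KRT13-high cells and 354 and 961 CPM in KRT13-negative cells, log2 ratios of 0.99 and 0.75. The weighting brought the KRT8 ratio without the S100A8-led cluster to 0.65. KRT15, a basal keratin, went the other way from KRT14, with 147 CPM in KRT13-high cells and 87.6 CPM in KRT13-negative cells without the cluster (0.75, weighted 0.97). The neighbours of KRT13 on chromosome 17 did not all go the same way. Of 10 measured genes within 200 kb, 2 were over 2-fold higher and 1 lower, where 0.839% and 1.09% of all genes were. Without the S100A8-led cluster 1 was higher and 1 lower, where 0.346% and 1.31% of all genes were. With the weighting as well 1 was higher and 0 lower, where 0.19% and 0.0828% of all genes were. With the cluster the higher ones were KRT16 and AC019349.1, and the lower one was KRT14. KRT15 and KRT19 fell just short of 2-fold there, at log2 ratios of 0.96 and 0.98 with 1 CPM added. AC019349.1 lies within KRT13 on the opposite strand (chr17:41500983-41502409, plus strand), and why its level went with KRT13 was not tested. KRT16 had 74.3% of its KRT13-high UMIs in the S100A8-led cluster. Its log2 ratio was 1.83 with the cluster, 0.27 without it and 0.93 with the weighting as well.

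Mesenchymal genes were lower in KRT13-high cells. VIM was 74.4 CPM in KRT13-high cells and 403 CPM in KRT13-negative cells (log2 ratio -2.44, -2.54 to -2.33), FN1 (fibronectin) 8.74 and 86.3 CPM (-3.30), and SERPINE2, a protease inhibitor, 6.30 and 70.5 CPM (-3.48). Without the VIM-high clusters the log2 ratios were -0.79, -0.50 and -0.67. Among all genes at 20 CPM or more, 3 were over 2-fold lower and 42 higher in that comparison, against 45 lower and 45 higher with those clusters kept. With cluster weighting and without the S100A8-led cluster, VIM was -1.08 and FN1 -1.17. Other genes of the 15 lowest followed VIM: COL8A1, a collagen chain, was 64.5 CPM in KRT13-high cells and 162 CPM in KRT13-negative cells (-1.32), and LGALS1, a galectin, 349 and 757 CPM (-1.12), and without the VIM-high clusters they stood at -0.61 and -0.17. TSHZ2 and KRT14 kept more of their ratio there, at -1.94 and -1.77. Of 20 mesenchymal genes 7 were over 2-fold lower (median -0.67), where 1.09% of all genes were. Without the S100A8-led cluster and with the weighting 3 of 20 were lower (median -0.32), where 0.0828% of all genes were.

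Levels differed in steps along KRT13 and not only at the limit. In the order no KRT13 UMI, 3 equal bins below the limit and KRT13-high, without the S100A8-led cluster, KRT4 was 3.42, 5.70, 8.25, 17.3 and 43.4 CPM, and KRT19 was 672 in the first and 1321 CPM in the last. KRT14 was 2375, 1374, 971, 782 and 530 CPM, and VIM 404, 193, 169, 116 and 76.5 CPM. S100A9 showed no such order, with 15.4, 11.4, 12.6, 12.7 and 8.77 CPM. Median UMIs per cell were 15281.5, 19858, 19403, 18737 and 17282 over the same bins with the cluster. The share of cells in the VIM-high clusters was 24.3, 8.22, 5.77, 2.12 and 1.40% over these bins. The part of depth and of these clusters in the levels along KRT13 was not tested.

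**Figure D4:**
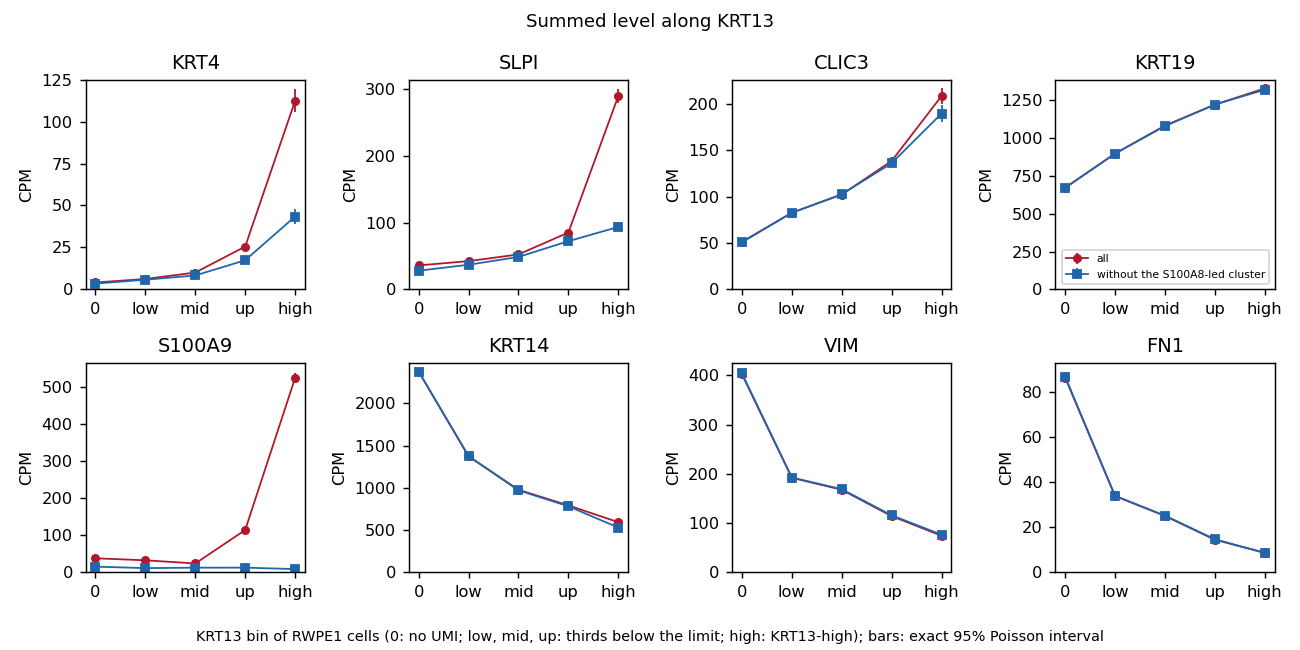
Summed level in CPM of 8 genes in RWPE1 cells by KRT13 bin (no UMI, 3 equal bins below the limit, KRT13-high), with all cells as circles and without the S100A8-led cluster as squares; bars are exact 95% Poisson intervals. KRT4 climbs to 43.4 CPM without the cluster, whereas S100A9 reaches 523 CPM in KRT13-high cells only when the cluster is included.

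Cycling genes and markers of other cell types were counted in the same way. None of the 20 S phase and none of the 20 G2/M genes was over 2-fold higher or lower, with medians of -0.01 and -0.18, where 0.839% of all genes were higher and 1.09% lower, so that a count of 0 in 20 shows little. The immune and endothelial lists, markers of other cell types, summed to 3.03 and 15.6 CPM in KRT13-high cells without the cluster. In KRT13-negative cells they summed to 2.55 and 12.1 CPM. Only 5 of 12 immune and 6 of 10 endothelial genes reached 10 UMIs, and none of these was over 2-fold apart. The same call took 0.346% of all genes higher and 1.31% lower, so that this count shows little too. Doublets were not called, and 8.22% of KRT13-high cells and 2.89% of KRT13-negative cells had over 2 times the median UMIs of all kept cells.

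In RWPE-ERG-mAKT, 24 of 14140 cells (0.170%, 0.109 to 0.252%) reached the RWPE1 limit with 3 UMIs, against 499 of 9967 RWPE1 cells (5.01%, 4.59 to 5.45%). Summed over kept cells KRT13 was 7.04 CPM (6.69 to 7.39) in RWPE-ERG-mAKT and 215 CPM (213 to 217) in RWPE1, a log2 ratio of -4.93 (-5.01 to -4.86). Library and genotype cannot be told apart. The libraries also differed in the Y-linked gene RPS4Y1, which had a UMI in 98.8% of KRT13-negative RWPE-ERG-mAKT cells. In RWPE1 it had one in 99.4% of cells of the VIM-high clusters and in 2.80% of other cells. KRT13 was 51.5 CPM in those VIM-high clusters and 237 CPM in the other RWPE1 cells. The part of this in the library ratio was not tested. With 24 KRT13-high cells in RWPE-ERG-mAKT the background is wide: 8.61% of 7112 genes were over 2-fold higher than in its KRT13-negative cells and 6.76% lower.

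Values of the same genes are set side by side here, with no test between libraries. CLDN4 was 404 CPM in the 24 KRT13-high cells of RWPE-ERG-mAKT and 20.8 CPM in its KRT13-negative cells (log2 ratio 4.28, 4.03 to 4.52). KRT19 was 4162 and 455 CPM (3.19), PSCA 175 and 14.4 CPM (3.60) and SLPI 7176 and 1197 CPM (2.58). KRT4 had 2 UMIs in these 24 cells and 48 in the KRT13-negative cells (4.67, 1.59 to 6.61). S100A9 was lower there, at 79.2 against 203 CPM, and VIM was 48.1 against 276 CPM. All 20 G2/M genes were over 2-fold lower (median -1.81), as were 11.6% of all genes by the same call. Of the 45 genes higher in RWPE1 and the 612 higher in RWPE-ERG-mAKT 21 were shared, and the sizes of the sets differ.

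**Figure D5:**
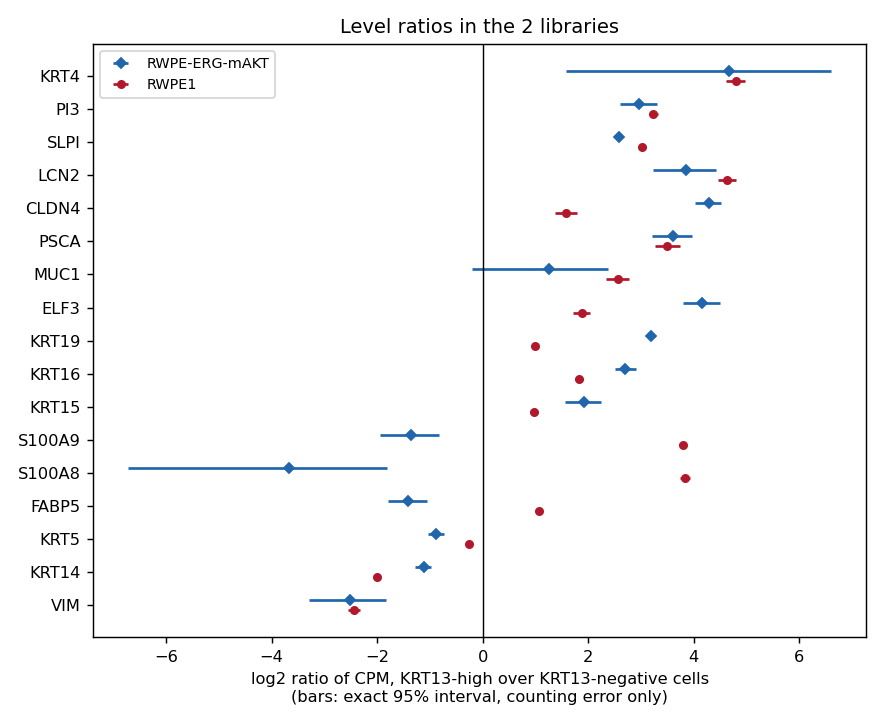
Log2 ratio of CPM, KRT13-high over KRT13-negative cells, for 17 genes in RWPE-ERG-mAKT (diamonds, 24 KRT13-high cells) and RWPE1 (circles, 499); bars are exact 95% intervals for counting error. PSCA and PI3 lie close together, while S100A9, S100A8 and FABP5 lie on opposite sides of 0.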

How the data were processed

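Cells were trypsinised and loaded at 10000 cells per library on a 10x Chromium 3' v3.1 kit. Per the submitters' processing notes, the authors quantified reads with Cell Ranger 7.1.0 against hg38 and deposited UMI counts per gene and barcode, with no normalization. The KRT13-high class, the gene lists and the alternatives were chosen with earlier results of these data known. Counts were summed over cells of a group and divided by the group's total (CPM). Intervals of CPM are exact Poisson, of ratios exact conditional and of shares exact Clopper-Pearson, at 95%. Those of CPM and of ratios were checked on counts drawn from the Poisson model that they assume. That check cannot show how they hold for UMIs gathered in a few cells. UMIs count molecules, but cells are not replicates, so the intervals cover counting error only. Clusters used 2000 variable genes, 30 components, 15 neighbours and Leiden at resolution 0.5 (seed 1), without KRT13 and MT- genes (scanpy 1.11.5, leidenalg 0.10.2, Python 3.11.15). No doublet caller was run. Shares were taken after thinning each cell to 5000 UMIs without replacement. The settings tried are other KRT13 percentiles, depth, cycle and mitochondrial limits, level minima, folds, scalings and reference cells. Levels of lists had 1 CPM added and a minimum of 10 UMIs. Most genes are named by rule, which took the 15 highest and 15 lowest ratios at 50 CPM or more. These had to keep direction in cells of 10000 to 25000 UMIs and in per-cell means. The rule also took up to 4 of each list at 20 CPM or more, keratins at 20 CPM or more and all hillock genes. MUC16, MUC20, SPRR2A, IVL, CYP1A1, RPS4Y1 and PRKY were named after their values were seen. Coordinates are from GENCODE 29. Some genes that the rule names are not reported here.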

Additional observations from a re-analysis of the deposited data

Results flagged for a closer look

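The ratio of KRT13-high to KRT13-negative cells lay on opposite sides of 1 in the 2 libraries for 3 genes, each past 2-fold in both. The log2 ratio of S100A8 was -3.67 in RWPE-ERG-mAKT and 3.83 in RWPE1, that of S100A9 was -1.36 and 3.79, and that of FABP5, a fatty acid binding protein, was -1.42 and 1.08. The difference was not tested, since each library stands alone. In RWPE1, 99.3% and 98.4% of the S100A8 and S100A9 UMIs of KRT13-high cells came from the S100A8-led cluster, and without that cluster the RWPE1 log2 ratios of S100A8, S100A9 and FABP5 were -1.09, -0.81 and 0.42. With the 124 RWPE-ERG-mAKT cells of 3 or more KRT13 UMIs the ratios there were -0.14, -0.59 and -0.34, none past 2-fold. S100A8 rested on 2 UMIs in the RWPE-ERG-mAKT KRT13-high cells.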

How the results depend on the processing

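No paired analysis was possible because each condition has 1 library. Beside the 45 genes higher and 45 lower, the counts were 29 higher at the 90th percentile, 174 higher and 101 lower at the 99th, 16 lower against all other cells, 69 lower under 5% MT- UMIs, 23 and 19 at 50 CPM, 854 and 2286 with a minimum of 10 UMIs only and 126 and 153 at 1.5-fold. Alternatives added after seeing the data gave 22 higher without the S100A8-led cluster, 3 lower without the VIM-high clusters, 21 higher and 3 lower weighted to clusters, and 10 and 2 with both weighting and no S100A8-led cluster. The hillock median of 1.01 moved to 0.72 at the 90th percentile, 2.26 at the 99th, 1.46 in cells at or below the median cycle level, 1.37 under 5% MT- UMIs, 1.41 with 0.1 CPM added, 0.12 without the S100A8-led cluster, 0.53 weighted and 0.29 with both. The squamous median of 1.55 moved to 1.13, 3.45, 1.98, 1.06 and 2.49 under the first 5 of these, to 1.03 in cells of 10000 to 25000 UMIs, 1.27 without a mitochondrial limit and 0.79 at 100 UMIs, and to -0.016 without the S100A8-led cluster, 0.47 weighted and 0.11 with both. Among named genes past 2-fold, ratios turned round without the S100A8-led cluster for SPINK5 (-0.080), S100A8 (-1.09), S100A9 (-0.81), SPRR2A (-0.74), SPRR1B (-0.28), SERPINB2 (-1.18), ECM1 (-1.72) and SERPINB1 (-0.068). Named genes under 2-fold that turned round were CDKN1A (-0.54), KLK5 (-2.01), CXCL17 (-0.26), AQP3 (-0.54), IFI27 (-2.80) and KLK10 (-1.07). With weighting as well they were -0.50 for S100A8, -0.12 for S100A9, -0.36 for SPRR2A, -0.46 for MUC20, -1.04 for SERPINB2, -0.34 for APOBEC3A and -0.20 for ECM1. Weighting alone gave -0.70 for IVL and -0.064 for FABP5, cells of 10000 to 25000 UMIs gave a CYP1A1 log2 ratio of -0.011, and leaving out the VIM-high clusters gave 1.28 for RPS4Y1 and for PRKY. KRT4 was found in 23.2% of KRT13-high cells thinned to 10000 UMIs, and 124 RWPE-ERG-mAKT cells had 3 or more KRT13 UMIs. The cause of these shifts was not tested.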

Other observations

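Transcripts of RPS4Y1 and PRKY, Y-linked genes named after their values were seen, marked the VIM-high clusters. RPS4Y1 had a UMI in 99.4% of the 1453 cells of these clusters and in 2.80% of the other 8514 kept RWPE1 cells, and its level was 460 and 3.19 CPM. It was 10.8 CPM in KRT13-high cells and 107 CPM in KRT13-negative cells, a log2 ratio of -3.31 that became 1.28 without the VIM-high clusters. In RWPE-ERG-mAKT, 24 of 24 KRT13-high cells and 98.8% of KRT13-negative cells had a UMI. The origin of the 2 RWPE1 groups was not tested.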
